A study of Mus musculus with 23 samples.

Results

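Heat shock proteins and chaperonins are the proteins that fold, refold and assemble other proteins. The genes were taken by name from the deposited tables: symbols beginning with Hspa, Hspb, Hspd, Hspe, Hsph or Hsp90, DnaJ genes of the A, B and C classes, and the subunits Cct2 to Cct8 of the CCT chaperonin. The rule found 54 genes among the 9480 genes of the series. It also took in Hspbp1 and Hspbap1, which share the prefix but are not heat shock proteins. All 54 were listed in the table of the tag precipitate (HA) and 34 of them in that of the flow-through (FT), with 20 in HA alone.

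The libraries come from young adult mGFAP-Cre-RiboTag mice, labelled as wild type in genotype, in which Cre under a mouse Gfap promoter puts a hemagglutinin tag on ribosomes. Every group carried the same transgenes and had a severe crush injury (SCI) at level 10 of the thoracic cord, so no uninjured tissue enters. The groups had SCI only, SCI with hydrogel CT, or SCI with hydrogel and growth factors, the depots given at day 2, and the central 3 mm of the lesion was taken at day 14. The series title names FGF and EGF, whereas the headers of the deposited tables name BDNF and NT3 for the same group and call hydrogel CT an EmGel group; this conflict was not settled, and CT is not explained by the labels. HA held 4, 3 and 3 libraries in that order, and FT 4, 4 and 5. SCI only libraries have title numbers of 9596 to 9935 and hydrogel libraries 1645 to 1762, so hydrogel and cohort cannot be told apart in a comparison with SCI only.

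Chaperones work as a relay. DnaJ proteins bring unfolded chains to an Hsp70 and trigger its ATP cycle, Hsp110 and Hspbp1 exchange its nucleotide, and Hsp90 takes over clients that are nearly folded. Mitochondria have their own Hsp70 (Hspa9) and the Hsp60 cage with its Hsp10 lid (Hspd1, Hspe1), the endoplasmic reticulum has Hsp90b1 and its own DnaJ proteins, and CCT folds actin and tubulin in the cytosol. Small heat shock proteins hold unfolded chains without ATP. Heat shock factor Hsf1 induces many of these genes through heat shock elements, and the unfolded protein response induces those of the endoplasmic reticulum. Small heat shock proteins such as Hspb1 and the related Cryab are known from reactive astrocytes.

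The promoter stretches below are shown because they hold the sites of these 2 pathways in genes whose values follow. RefSeq windows of build GRCm38.p6, 250 bases before to 50 after a start site, matched 45 of the 54 genes (59 windows) among 27025 genes (32851 windows). A heat shock element was searched as GAANNTTC or TTCNNGAA with another unit of the series at the same spacing, on both strands, so that every match is also a match of the shorter motif. The element of the endoplasmic reticulum stress response was searched as CCAAT, 9 bases and CCACG, on both strands, and overlaps a CCAAT box by design. Capitals mark the match.
Hspe1, chr1:55088053-55088082, plus strand: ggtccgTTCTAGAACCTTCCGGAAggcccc
Hsph1, chr5:149636279-149636308, minus strand: gctgcagaTTCTGGAAAGTTCtcctcagta
Dnajb6, chr5:29735844-29735873, plus strand: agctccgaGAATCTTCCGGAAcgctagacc
Dnajc3, chr14:118937822-118937851, plus strand: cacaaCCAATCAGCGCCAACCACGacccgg
Hsp90b1, chr10:86705632-86705661, minus strand: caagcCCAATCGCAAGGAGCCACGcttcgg
Hsp90b1, chr10:86705527-86705556, minus strand: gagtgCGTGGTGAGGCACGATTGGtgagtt
The heat shock element lay in 6 of the 59 windows (10.2%), against 0.603% of all windows, in Hspd1, Hspe1, Hsph1 and Dnajb6. By gene this was 4 of 45 (8.89%), against 0.662%. The windows of Hsph1 overlap and share 1 site, as do those of Dnajb6. The shorter motif was less distinct, in 27.1% against 15.1%. The stress response element lay in the windows of Dnajc3 and Hsp90b1, 3.39% against 0.119%. Hspd1 and Hspe1 stand head to head on chromosome 1, with start sites at 55088024 on the minus strand and 55088132 on the plus strand and 107 bases between them, and the Hspe1 stretch lies in that gap, so both windows hold 1 shared site. These matches are descriptions of letters, not of binding.

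In HA, counts on named genes ranged from 7939015 to 24335808 per library, but those on protein-coding genes other than Lars2, a locus that collects ribosomal RNA reads, from 202299 to 5800354. In FT the latter ranged from 2251 to 255152. The 54 genes held 2073 to 48259 counts per HA library and the 34 genes 28 to 1673 per FT library, so many FT values rest on a few reads. As a share of protein-coding counts they took 0.655% to 1.74% over the 23 libraries. CPM below is the count relative to the library size scaled by TMM, on 1 scale for HA, 1 for FT and 1 for both together, and the 3 are not interchangeable. Nothing states that libraries came from separate animals, so p-values reflect only how far these libraries spread, which may be technical.

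Hsp90ab1, the constitutive cytosolic Hsp90, had the highest level of these genes in every group. Per kb of counted transcript it stood at 63.6 ± 9.79 CPM in HA after SCI only (SD over 4 libraries). It stood at 53.1 ± 11.2 in the hydrogel CT group and 115 ± 42.2 in the growth factor group (3 libraries each). It took 17.5% to 54.3% of the counts of the 54 genes in a library. Next by mean level in HA came the mitochondrial genes. With growth factors Hspe1 stood at 36.9 ± 6.01 CPM per kb, Hspd1 at 31.8 ± 9.05 and Hspa9 at 26.8 ± 8.28, which overlap within their spread. With SCI only the order was Hspbp1 at 14.5 ± 6.83, Hspa9 at 12.6 ± 6.36 and Hspe1 at 11.1 ± 5.53, again overlapping, while Hspd1 was ninth at 6.50 ± 2.30. Hspa8, the constitutive Hsp70 of the cytosol, had counts on retained-intron transcripts alone (122 in all), so its level is not known from these data. Hsp90aa1, Hspa5, Hspa1a and Hspa1b have names that match the rule but were not among the 54 genes it found, so they were not analysed here.

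**Figure D1:**
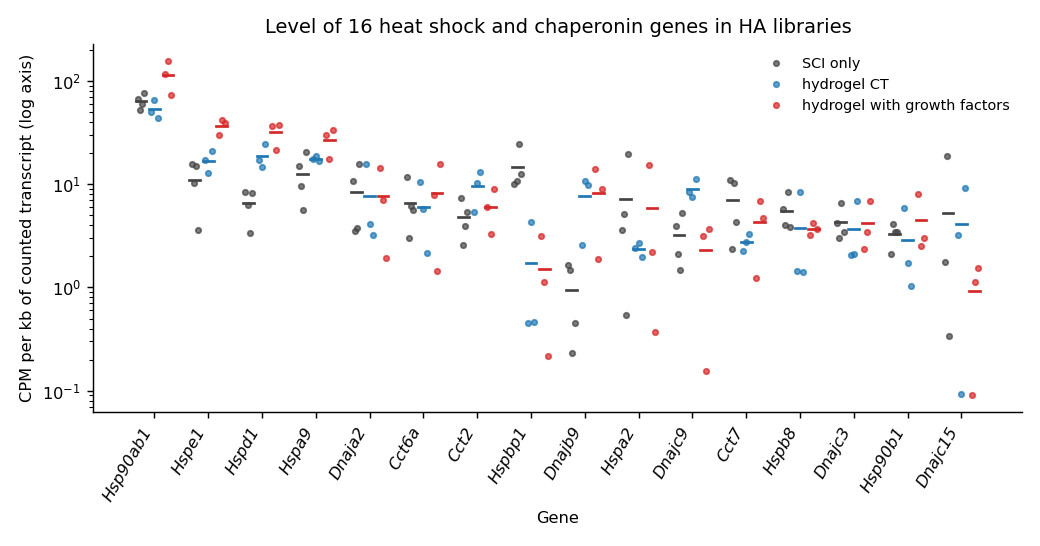
Level of the 16 genes with the highest mean in HA, in CPM per kb of counted transcript on a log axis. Points are libraries, short lines are group means, and values of 0 are not drawn; Hsp90ab1 lies above the other genes in each treatment, with means of 53.1 to 115.

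The reads of several genes could be split with other genes that share stretches of their sequence. Of the 50-base stretches of the main transcript, 60.4% in Hspb1, 44.8% in Hspd1 and Hspe1 and 41.9% in Dnajb6 also occur in other genes, processed pseudogenes among them, whereas none do in Hspa12a, Hspb6, Hspb8, Hspbp1 or Hsph1. The share was 28.8% in Dnaja1, 25.6% in Dnajc14, 25.4% in Dnajc17 and 24.3% in Dnajc30. For Dnajc14 and Dnajc30 the gene sharing most was a protein-coding one, Ormdl2 and Bud23. In the retained-intron transcript of Hspa8 with the most counts it was 52.65%. How the authors' counting treated such reads is not given in the sources used here. The counts of genes with large shares, those of the first 4 above all, are therefore uncertain.

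The comparison of HA with FT asked how these transcripts divide between tagged ribosomes and the rest of the tissue, over the 10 title numbers with both fractions. Of 34 genes listed in both tables, 32 were tested, and 4 passed edgeR's quasi-likelihood test at an adjusted p under 0.05. The 2 higher in HA were Hspb8 and Hspa9, and the 2 lower were Hspa12a and Dnajb1. Of all 3295 genes tested 20.6% passed, 13.2% higher and 7.37% lower, so 4 of 32 is no more than the background. The median log2 difference of the 32 genes was 0.10, against 0.28 over all genes.

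Hspa12a, a distant member of the Hsp70 family, had the largest difference between fractions of the 32. In HA it stood at 1.81, 2.33, 3.79 and 8.73 CPM with SCI only, 0.170, 2.96 and 6.67 with hydrogel CT, and 0, 0.470 and 1.49 with growth factors. In FT it stood at 12.9, 14.4, 19.0 and 19.1 CPM with SCI only, 26.6, 36.0 and 55.7 with hydrogel CT, and 13.8, 30.7 and 38.0 with growth factors, from 3 to 56 counts per library. No HA library reached the lowest FT library, the only such case among the 32 genes (2.12% of all genes tested). The mean was 2.84 ± 2.87 CPM in HA and 26.6 ± 13.7 in FT (SD, n = 10 each), a log2 difference of -3.40 (SE 0.68, edgeR adjusted p = 3.30e-04). Within the SCI only numbers it stood at -1.98 (adjusted p = 0.0842) and within the hydrogel numbers at -4.21 (0.00404), and the difference between cohorts did not pass (-2.37, SE 1.21, adjusted p = 0.739).

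Between the fractions, markers of neurons and of microglia and macrophages were mostly lower in HA, as Hspa12a was. Of 12 neuron markers 8 were listed and 7 tested, with 6 lower in HA and none higher, and their summed level was 35.6 to 288 CPM in HA libraries and 308 to 1653 in FT. Of 12 microglia and macrophage markers 10 were listed, 9 tested and 8 lower, with 17.4 to 851 CPM in HA and 96.3 to 7898 in FT. Astrocyte markers moved the other way, 11 of 12 tested being higher, with 4111 to 8638 CPM in HA and 207 to 2032 in FT. So did those of oligodendrocyte progenitors, 6 of 7 being higher, with 367 to 912 CPM in HA and 27.7 to 171 in FT. Of oligodendrocyte markers 3 of 9 tested were higher and none lower, with 917 to 2233 CPM in HA and 144 to 1258 in FT. Of 2 fibroblast and pericyte markers tested 1 was lower, and of 2 Schwann cell markers tested 1 was higher. Across treatments within FT the microglia and macrophage markers did not follow Hspa12a. Their median summed level was 4212 CPM with SCI only, 2138 with hydrogel CT and 851 with growth factors, whereas Hspa12a was lower with SCI only than with hydrogel CT. No listed marker was at 0 in all libraries of a fraction, which says little, since every listed row had at least 10 counts in HA or 11 in FT. None of 7 endothelial markers was listed in both tables. The part of these cells in the result was not tested, and fewer cells of a type and less RNA per cell cannot be told apart in such bulk samples.

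Hspb8, a small heat shock protein that works with Bag3 in selective autophagy, was higher in HA. Its HA libraries had 13.6, 14.7, 18.01 and 28.2 CPM with SCI only, 4.15, 4.31 and 24.8 with hydrogel CT, and 8.83, 10.96 and 14.1 with growth factors. Its FT libraries had 2.88, 5.30, 5.43 and 7.04, then 0, 6.65 and 13.5, then 0, 0 and 1.36 CPM, from 0 to 16 counts. The fractions did not overlap with SCI only or with growth factors and did with hydrogel CT. The log2 difference was 1.85 (SE 0.63, adjusted p = 0.0334). The call was lost without number 1759 (0.0870), 9596 (0.0677), 9843 (0.0503) or 9874 (0.0957), and within either cohort, at 1.88 (0.0698) and 2.03 (0.250).

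Hspa9, the mitochondrial Hsp70, was also higher in HA. It had 31.6, 59.3, 78.2 and 121 CPM in HA with SCI only, 82.0, 88.6 and 92.7 with hydrogel CT, and 98.2, 138 and 166 with growth factors. In FT it had 27.2, 34.2, 40.4 and 43.2, then 55.4, 58.6 and 77.9, then 33.9, 41.5 and 92.0 CPM. Only the SCI only libraries overlapped within a treatment. The log2 difference was 0.93 (SE 0.33, adjusted p = 0.0424). It was similar within the cohorts, 0.99 and 1.06, without passing there (0.152 and 0.218), and the call was also lost with the title number as a block (0.0926), DESeq2's size factors (0.0790), a minimum of 5 CPM (0.0531), library sizes without ribosomal RNA loci (0.0504) or without the 3 numbers of lowest FT depth (0.0728), and without 1759 (0.0820), 1685 (0.0829), 1732 (0.0555), 9596 (0.0865), 9843 (0.0753) or 9935 (0.123).

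Dnajb1, the main inducible DnaJ partner of Hsp70, was lower in HA on few reads. It had 1.43 to 3.88 CPM in HA with SCI only, 1.72 to 6.71 in the hydrogel CT group and 0 to 0.141 with growth factors, and 0 to 10.6, 3.71 to 4.51 and 0 to 17.6 in FT, where 8 of 10 libraries had at least 1 read. The fractions overlapped in every treatment. The log2 difference was -2.18 (SE 0.80, adjusted p = 0.0477). Dnajb1 was tested in only 12 alternatives, against 19 for Hspa12a, and kept the call in 2 of the 12. The call was lost with the block (0.123), DESeq2's size factors (0.0539) or no filter (0.136), within the hydrogel numbers (-2.92, 0.191), and without 1685 (0.0988), 1687 (0.135), 1732 (0.150), 9596 (0.102), 9874 (0.119) or 9935 (0.0577).

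**Figure D2:**
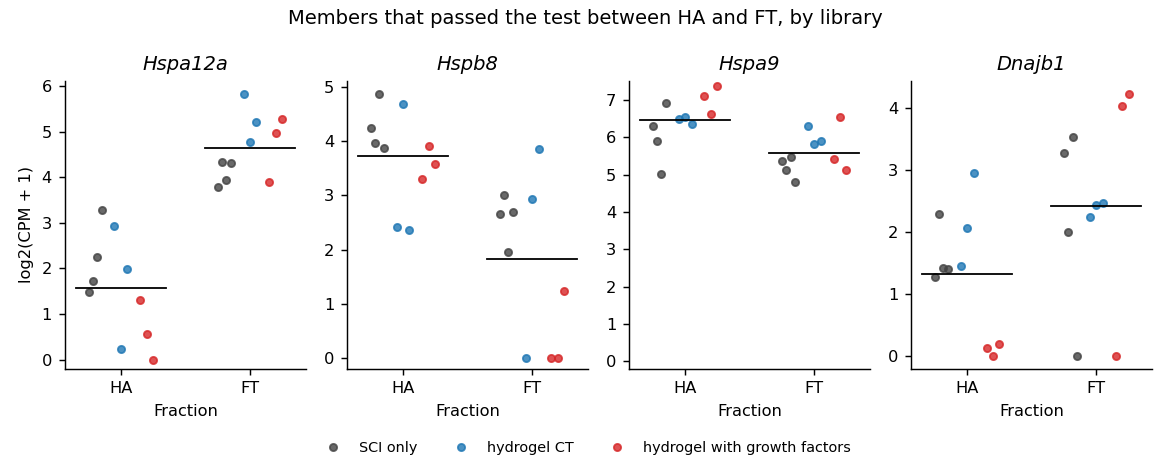
CPM of Hspa12a, Hspb8, Hspa9 and Dnajb1 in each of the 10 HA and 10 FT libraries, as log2(CPM + 1). Points are libraries coloured by treatment and lines are means over the fraction; only for Hspa12a do the fractions not overlap.

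Genes just short of the threshold lay on both sides. Dnajc3, an endoplasmic reticulum DnaJ that inhibits the eIF2 kinases, stood at 1.27 (SE 0.50, edgeR adjusted p = 0.0691), and at 2.14 within the SCI only numbers (0.00807) and 0.85 within the hydrogel numbers (0.515), where the difference between cohorts did not pass (-1.45, SE 0.96, adjusted p = 0.827). Hspd1 stood at 0.95 (SE 0.38, 0.0757) and Hspe1 at 0.17 (SE 0.47, 0.840). For Hspd1 the cohorts gave 0.14 and 1.69, and their difference did not pass either (1.38, SE 0.73, adjusted p = 0.744). Hsp90ab1 stood at 0.56 (SE 0.29, 0.178), from 176 to 718 CPM in HA and 126 to 307 in FT. None of the 6 CCT subunits tested passed edgeR's test: Cct2 stood at -0.87 (SE 0.39, 0.111; DESeq2 -1.01, 0.0226), Cct5 at -1.09 (SE 0.57, 0.181; DESeq2 -1.24, 0.0479) and Cct7 at 0.73 (SE 0.50, 0.329). Of the DnaJ C class 0 of 10 tested passed, with Dnajc9, a histone chaperone partner, at 1.56 (SE 0.73, 0.131) and Dnajc14 at 1.44 (SE 0.71, 0.153). DESeq2 called Dnajc10 of this class lower (-1.24, adjusted p = 0.0498), which edgeR put at -1.09 (0.185).

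**Figure D3:**
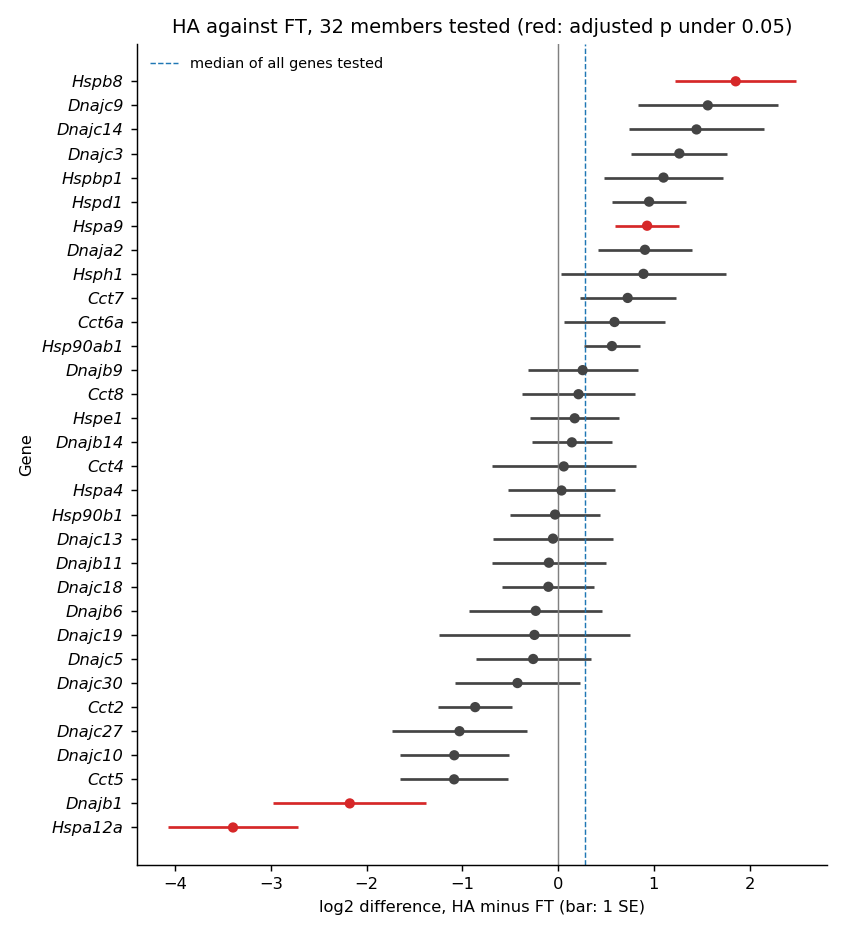
Log2 difference of HA minus FT for the 32 genes tested, with bars of 1 SE. The 4 in red passed the test, the dashed line is the median of all genes tested (0.28), and Hspa12a lies lowest at -3.40.

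Other genes of protein folding were read from lists, of which those tested are given. The remaining small heat shock protein of astrocytes on the lists, Cryab, was higher in HA, 184 against 47.8 CPM (log2 difference 2.02, SE 0.41, edgeR adjusted p = 4.09e-04). Of 2 tested regulators of heat shock factors, Hsbp1, which binds Hsf1, was higher by 2.08 (SE 0.37). Of 6 mitochondrial proteostasis genes the protease Lonp1 was higher by 2.33 (SE 0.63). Of 4 tested stress response genes of the endoplasmic reticulum the factor Xbp1 was lower, at -2.45 (SE 0.66). None passed among 10 cochaperones, 8 other endoplasmic reticulum chaperones, 3 prefoldin and CCT partners and 1 immediate early gene. List medians were 0.08 for cochaperones, 0.43 for the chaperones of the endoplasmic reticulum and 0.90 for mitochondrial proteostasis, beside 0.28 over all genes.

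The 20 genes listed in HA alone had 22 to 2022 counts in all. Hspa2, an Hsp70 best known from the testis, led them, and ranged from 0.944 to 49.1 CPM over the HA libraries. Hspa13, Dnajc15, Hspb6 and Dnajc8 followed. Since the FT libraries were shallower, a gene without an FT row is not shown to be absent there.

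The treatment comparisons in HA asked what the depots changed in the precipitated RNA. Of the 54 genes 46 were tested, and none passed edgeR's test in any of the 3 comparisons. The background was low as well: 0.436% of 6654 genes for growth factors against SCI only, 0.195% for hydrogel CT against SCI only and 0.0902% for growth factors against hydrogel CT. At an unadjusted p under 0.05 the counts were 10, 3 and 5 of 46 (21.7%, 6.52% and 10.9%), against 21.0%, 12.7% and 13.3% of all genes. DESeq2 called 7, 2 and 3 of them, with backgrounds of 10.7%, 3.49% and 4.07%. Groups did not overlap in 9, 6 and 8 of the 46 genes, with 14.2%, 18.9% and 18.4% over all genes. The median log2 difference was 0.23, 0.46 and -0.01, and 0.12, 0.27 and -0.14 over all genes. DESeq2's size factors moved the median over all genes by -0.06, -0.21 and 0.16.

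The Hsp60 and Hsp10 genes of mitochondria had their lowest means with SCI only. Hspd1 stood at 8.03, 15.0, 19.5 and 19.98 CPM with SCI only, 35.05, 41.6 and 58.8 with hydrogel CT and 51.3, 88.0 and 89.9 with growth factors. Each hydrogel group lay above all SCI only libraries, and the hydrogel groups overlapped each other. The log2 difference from SCI only was 2.29 with growth factors (SE 0.54, edgeR adjusted p = 0.0546; DESeq2 2.22, 0.00310) and 1.53 with hydrogel CT (SE 0.53, edgeR adjusted p = 0.259). The first passed edgeR's test without library 1687, at 2.55 (0.0314), the growth factor library with the fewest protein-coding counts. In the authors' deposited table this difference was 2.35, with a false discovery rate of 0.0114.

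Hspe1, across the shared promoter stretch, stood at 2.79, 7.91, 11.6 and 12.05 CPM with SCI only, 9.82, 13.3 and 16.1 with hydrogel CT and 23.3, 30.3 and 32.1 with growth factors. The growth factor libraries lay above all others, and the rest overlapped. Its log2 difference was 1.73 with growth factors against SCI only (SE 0.66, edgeR adjusted p = 0.166; DESeq2 0.0443), 0.60 with hydrogel CT (SE 0.65, 0.720) and 1.13 between the hydrogel groups (SE 0.71, 0.504). Hspa9 stood at 17.2, 29.5, 45.2 and 61.9 CPM, then 50.5, 53.3 and 56.9, then 53.3, 90.5 and 101, with overlap and a log2 difference of 1.09 with growth factors against SCI only (SE 0.53, 0.250). Of 6 mitochondrial genes tested, a grouping made after the values were seen, 5 had a positive log2 difference here, with a median of 1.81. The list of 9 other mitochondrial proteostasis genes had a median of -0.02.

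Dnajb9, a DnaJ of the endoplasmic reticulum induced by the unfolded protein response, was low with SCI only. Its libraries stood at 0.574, 1.12, 3.67 and 4.04 CPM with SCI only, 6.40, 24.0 and 26.6 with hydrogel CT and 4.59, 21.9 and 34.3 with growth factors. Both hydrogel groups lay above SCI only and overlapped each other, and each had 1 library close to SCI only. The log2 difference was 3.00 with hydrogel CT (SE 0.89, edgeR adjusted p = 0.183; DESeq2 0.0422) and 3.10 with growth factors (SE 0.89, edgeR 0.104; DESeq2 0.0134). Without library 1687 the latter was 3.60 (edgeR adjusted p = 0.0385). In the authors' deposited table it was 3.17, with a false discovery rate of 0.0331.

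The other genes of this family in the endoplasmic reticulum overlapped between SCI only and each hydrogel group, apart from Dnajb11. Hsp90b1 had 5.99 to 11.6 CPM with SCI only, 2.94 to 16.8 in the hydrogel CT group and 7.14 to 22.8 with growth factors, and Dnajc3 had 15.4 to 33.5, 10.6 to 35.2 and 12.2 to 35.6. Dnajb11, a cofactor of the reticulum's Hsp70, stood at 3.44 to 11.9 CPM with SCI only and 0.687 to 2.04 with growth factors, without overlap, at -2.23 (SE 1.03, edgeR adjusted p = 0.224; DESeq2 0.0466). A grouping of 7 tested genes of this family in the reticulum, outside the planned lists, held Dnajb9 but not Dnajb14 of the reticulum membrane. Of these 7, 4 were positive with growth factors against SCI only, with a median of 0.47. Dnajb14 stood at 0.15 in this comparison. On the list of 16 other chaperones and folding enzymes of the reticulum, none of 13 tested passed, 5 were at an unadjusted p under 0.05 (38.5%, against 21.0% of all genes) and 7 were positive, with a median of 0.17. Their summed level was 101.6 to 125 CPM with growth factors, above the 44.4 to 71.9 with SCI only and the 51.1 to 60.5 with hydrogel CT. This difference in the sum rested on the disulfide isomerases Pdia3 and Pdia6, named after their values were seen. They had means of 37.0 and 39.5 CPM with growth factors and 7.81 and 6.89 with SCI only. The sum therefore does not show a rise of the list as a whole. Pdia3 stood at 1.79 to 65.7 CPM over the growth factor libraries. No gene of the stress response list passed, with 5 tested and a median of -0.12.

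Hspbp1, the nucleotide exchange cofactor of Hsp70, was high with SCI only in both fractions. Its HA libraries stood at 16.2, 17.0, 20.1 and 39.2 CPM with SCI only, 0.721, 0.733 and 6.81 with hydrogel CT and 0.343, 1.79 and 5.05 with growth factors, without overlap. The log2 difference from SCI only was -3.07 (SE 1.06, edgeR adjusted p = 0.255; DESeq2 0.0227) and -3.25 (SE 1.08, edgeR 0.128; DESeq2 0.0132). Its FT libraries had 18, 19, 31 and 65 counts with SCI only, 0 or 1 in the hydrogel CT group and 0 to 2 with growth factors, at depths that also differed by cohort. As CPM this was 40.8 to 132 with SCI only and at most 3.01 in the other FT libraries. It did not reach the minimum count for the test in FT, and cohort and treatment cannot be told apart here.

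**Figure D4:**
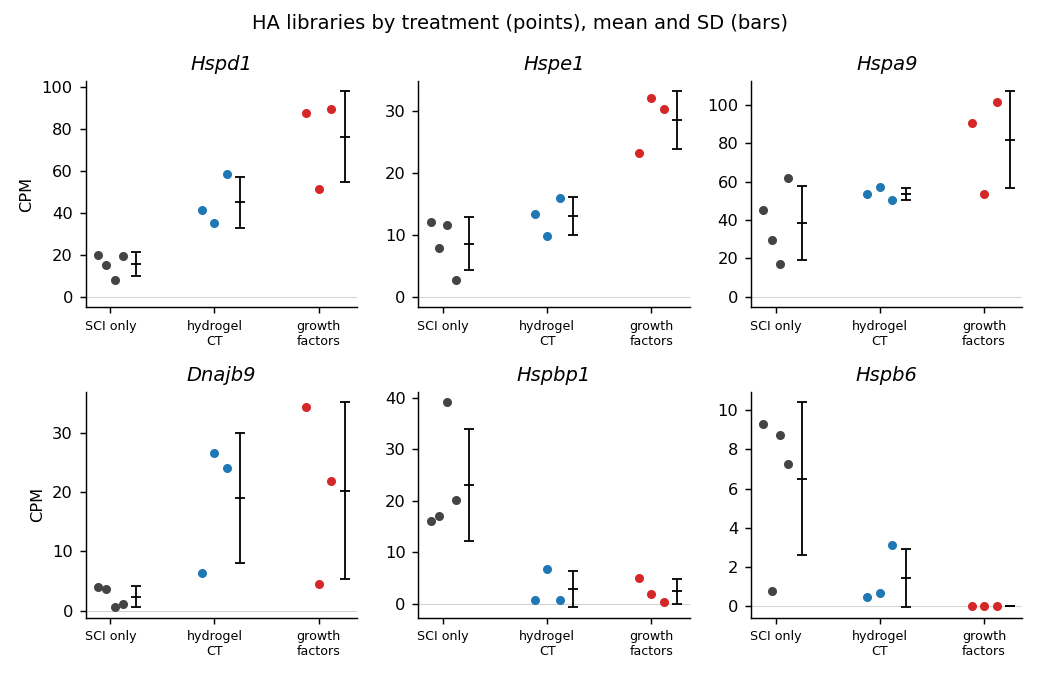
CPM of Hspd1, Hspe1, Hspa9, Dnajb9, Hspbp1 and Hspb6 in each HA library by treatment, with mean and SD as black bars. Hspd1 and Dnajb9 are lowest and Hspbp1 is highest with SCI only, and Hspb6 is at 0 in the 3 growth factor libraries.

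Hspb6, a small heat shock protein of muscle and glia, was not detected with growth factors. It had 0.772, 7.25, 8.72 and 9.28 CPM with SCI only (4 to 124 counts), 0.451, 0.689 and 3.15 with hydrogel CT (20 to 245 counts) and 0 counts in all 3 growth factor libraries. Set against 3 counts over that group, the floor that a count of 0 allows, the level was at least 69.4-fold lower than with SCI only and at least 15.2-fold lower than with hydrogel CT. The first bound was 33.8-fold without growth factor library 1685 and 44.1-fold without 1732. The second was 6.08-fold without hydrogel CT library 1762, 7.42-fold without 1685 and 9.69-fold without 1732. EdgeR's adjusted p was 0.0521 and 0.250, and DESeq2's 5.47e-05 and 0.0174. The floor covers counting error only. Hspb8 and Hspb1 had reads in every group, Hspb8 at 6.97 to 15.4, 2.56 to 15.2 and 5.79 to 7.65 CPM and Hspb1 at 0 to 1.54, 0.180 to 0.961 and 0 to 3.09 CPM.

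Hspa13, an Hsp70 of the microsomes, also had 0 counts in the 3 growth factor libraries, and 54, 83 and 616 with hydrogel CT, at least 38.8-fold lower (edgeR adjusted p = 0.250, DESeq2 0.0143). That bound was 15.99-fold without hydrogel CT library 1762, which had the 616 counts, 18.9-fold without 1685 and 24.7-fold without 1732. With SCI only it had 0, 0, 7 and 18 counts. Dnajb1 had 0, 1 and 1 counts with growth factors and 46, 94 and 322 with hydrogel CT, at a fitted log2 difference of -5.23 (SE 1.64, edgeR adjusted p = 0.250; DESeq2 0.0198). Dnajc21, a cofactor of ribosome assembly, had 0, 0 and 1 against 14, 43 and 312 counts (-5.73, SE 1.98, edgeR adjusted p = 0.258). The growth factor libraries had 282734 to 1523813 protein-coding counts without Lars2 and the hydrogel CT libraries 2846894 to 5800354, and 35 to 47 against 51 or 52 of the 54 genes had a read. The part of depth in these differences was not tested.

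Hsp90ab1 stood at 131, 149, 165 and 189 CPM with SCI only, 109, 125 and 163 with hydrogel CT and 180, 289 and 390 with growth factors. The growth factor group lay above hydrogel CT and overlapped SCI only. The log2 difference was 1.11 against hydrogel CT (SE 0.47, edgeR adjusted p = 0.319) and 0.85 against SCI only (SE 0.43, 0.265). Hsph1, the Hsp110 with a heat shock element in its promoter windows, had 0 to 3.67 CPM with SCI only, 4.26 to 11.7 with hydrogel CT and 0, 0.0858 and 20.7 with growth factors. Dnajb6, which blocks polyglutamine aggregation, ranged from 0.229 to 3.44, 2.26 to 3.20 and 0.510 to 9.38 CPM.

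No CCT subunit passed in HA. Against SCI only 3 of 6 tested had a positive log2 difference with hydrogel CT and 5 of 6 with growth factors, with medians of 0.33 and 0.33 and no call. Cct2 had 5.02 to 14.4, 10.5 to 25.6 and 6.38 to 17.6 CPM and Cct7 5.79 to 26.6, 5.52 to 8.10 and 3.04 to 16.8. Dnaja2, a cytosolic partner of Hsp70, had 10.2 to 45.8, 9.38 to 46.2 and 5.67 to 41.4 CPM, with a log2 difference of -0.12 with growth factors against SCI only (SE 0.79). In the class of DnaJ C genes, Dnajc13, an endosomal protein, ranged from 0.255 to 90.6 CPM, the highest value in hydrogel CT library 1762, and Dnajc19 of the mitochondrial import motor had 469, 0 and 15 counts in growth factor libraries 1685, 1687 and 1732. None of the other lists of protein folding had a gene that passed in the 3 HA comparisons.

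Other genes had wide ranges. Hspa4, another Hsp110 relative, had 0.688 to 4.19 CPM with SCI only, 5.12 to 14.2 under hydrogel CT and 5.24 to 9.38 under growth factors, and both hydrogel groups lay above SCI only (log2 differences of 1.57 and 1.19, neither past the test). Hspa14, a ribosome-bound Hsp70, had 0.229 to 3.28, 1.71 to 10.3 and 0.765 to 3.47 CPM. Dnajc9 stood at 2.41 to 8.65, 12.2 to 18.1 and 0.255 to 6.01 CPM, so hydrogel CT lay above both other groups without a call. Dnajb14 of the reticulum membrane had 8.93 to 28.9, 11.7 to 53.0 and 10.4 to 31.4 CPM, and Dnajc18 had 7.18 to 14.8, 4.24 to 10.5 and 2.32 to 49.0. Dnajc17 had 0 to 26 counts with SCI only and 0 to 2 with growth factors. Dnaja3, with 37 counts in all, and Hspbap1, with 30, were not tested.

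**Figure D5:**
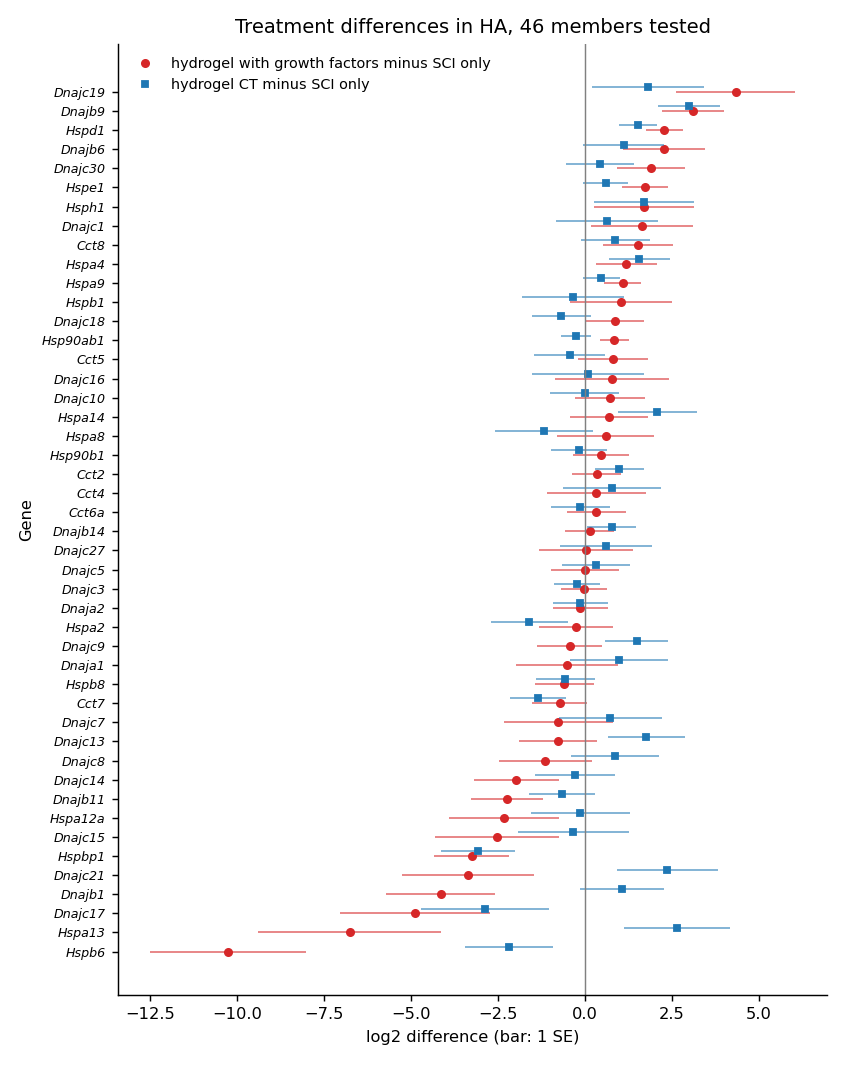
Log2 differences from SCI only in HA for the 46 genes tested, with bars of 1 SE, for growth factors (circles) and hydrogel CT (squares). No difference passed edgeR's test; the comparisons share the SCI only libraries, and the lowest value is Hspb6 at -10.25, fitted against 0 counts.

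Summed marker levels in HA overlapped between treatments, apart from those of astrocytes, which were higher with growth factors than with SCI only. The summed level of 14 listed astrocyte markers was 2201 to 3116 CPM with SCI only, 2902 to 5326 in the hydrogel CT group and 3464 to 4609 with growth factors, and that of 10 oligodendrocyte markers 469 to 654, 571 to 1233 and 624 to 1364. Of 12 microglia and macrophage markers 10 were listed, at 52.1 to 464, 10.7 to 100.4 and 80.7 to 82.8 CPM. None of 13 astrocyte and 10 microglia and macrophage markers tested passed in any of the 3 HA comparisons. Of 9 oligodendrocyte markers tested, 1 was higher with hydrogel CT and 1 with growth factors, each against SCI only. Over all genes 0.195% and 0.436% passed in these 2 comparisons. Between the hydrogel groups no oligodendrocyte marker passed. The part of these cells in the treatment differences was not tested.

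In FT 6 of the 34 genes had enough reads for a test of treatments: Hsp90ab1, Hspa9, Hspd1, Hspa12a, Dnajb14 and Cct2. None passed edgeR's test, with 0 at an unadjusted p under 0.05, or DESeq2's, and the background was 3.11% of 610 genes for hydrogel CT against SCI only, 3.77% for growth factors against SCI only and 0% between the hydrogel groups. Hsp90ab1 stood at 312, 519, 543 and 697 CPM with SCI only and 187, 213, 289 and 307 with hydrogel CT, without overlap, at a log2 difference of -1.03 (SE 0.66, edgeR adjusted p = 0.438). Hspd1 stood at 29.5 to 90.6, 33.1 to 61.0 and 18.1 to 129 CPM, which overlap, with -0.31 (SE 0.66) for hydrogel CT and 0.35 (SE 0.61) for growth factors. Over the 10 numbers with both fractions, the difference of all hydrogel libraries from SCI only was not shown to differ between HA and FT for Hspd1, by the test of cohorts given above (adjusted p = 0.744).

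The authors' deposited table called further rows of these genes at a false discovery rate under 0.05. For growth factors against SCI only in HA it called 4 of 65 rows, where 3.97% of all rows were called: Hspd1 and Dnajb9 higher, and Hspb6 (-10.13) and Dnajb2 (-6.26) lower. For hydrogel CT against growth factors in HA it called Hspb6 and Hspa13 higher, with 0.597% over all rows. In FT the authors' deposited table had Dnajb9 higher (3.18) and Dnajb11 (-2.89) and Hspbp1 (-5.04) lower with hydrogel CT against SCI only, 3 of 34 rows against 8.2% of all. Against SCI only with growth factors in FT it had Hspbp1 lower (-4.94), 1 of 34 rows against 9.08% of all.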

How the data were processed

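The genes and lists were chosen with earlier results of these data known. Per the labels' protocols, cDNA was amplified with the NuGEN Ovation system and sequenced paired-end. CASAVA 1.8.2, edgeR and build mm10 are named per the submitters' processing notes, without an aligner, counter, strand setting or annotation. The authors deposited whole-number read counts per Ensembl transcript, with their own edgeR results by treatment pair, per the file headers as log2 fold change, p-value and FDR. Not used were 45 more columns of per-sample values. Counts were summed per symbol here; rows without a symbol, at most 0.319% of a library's counts, were left out.

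Tests were two-sided with edgeR 4.0.16 (R 4.3.3, quasi-likelihood, TMM, filterByExpr with a minimum count of 10) over all genes, with Benjamini-Hochberg adjustment at 0.05; the 3 treatments of a fraction shared a fit. HA against FT used the 10 numbers found in both fractions, the 4781 genes listed in both tables, and terms for treatment and fraction. The depth of named genes was 7939015 to 24335808 counts per HA library and 19600 to 5432216 per FT library, which limits low values. DESeq2 1.42.0, its size factors, other filters, omitted libraries, single cohorts and library sizes without ribosomal RNA loci were alternatives. A test of the difference between cohorts was added after seeing the data. The fits were tested on simulated data. Transcripts and lengths are of GENCODE M21.

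Named genes were those past the threshold, up to 4 of each family by summed counts, the 3 with the largest differences either way in a comparison, and the 5 highest listed in HA alone. Within a group, the chi-square of any 2 libraries over its degrees of freedom was 4.61 or more, so none was a copy of another.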

Additional observations from a re-analysis of the deposited data

Results flagged for a closer look

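A library stood far from the others of its group in 7 of 66 groups of 4 or 5 libraries with at least 40 counts of a named gene. Its gap to the nearest other library, divided by the range of the group, was above Dixon's 95% critical value, which chance alone passes in about 1 in 20 groups. Library 9596 had Cct8 at 43.6 CPM in FT with SCI only, where the others had 9.06 to 13.9, and Dnajb6 at 3.44 CPM in HA, where the others had 0.229 to 0.772. Library 9874 had Hspbp1 at 39.2 CPM in HA, where the other SCI only libraries had 16.2 to 20.1, and Hspa4 at 0.688 CPM, where they had 3.67 to 4.19. In library 9843 Dnajc15 stood at 12.7 CPM in HA against 0 to 1.20. In FT with hydrogel CT library 1724 had Dnajb9 at 200.9 CPM against 27.1 to 53.4, and with growth factors library 1687 had Hspa9 at 217 CPM against 37.1 to 73.9, from 12 counts.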

How the results depend on the processing

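Of these genes 4 of 32 tested passed between HA and FT, where 20.6% of all genes passed. Apart from DESeq2 in the HA treatment comparisons, given above, the share of all genes called was not counted for the alternatives. Their counts therefore stand without a background and show only how the calls depend on the processing. DESeq2 called 7, its size factors 2, a minimum of 5 CPM 2, library sizes without ribosomal RNA loci 2, the SCI only numbers alone 1 (Dnajc3) and the hydrogel numbers alone 1 (Hspa12a); leaving out 1 number gave 1 to 4, with 1 without 1759 or 9596 and 2 without 9843 or 9935. Hspa12a passed in 18 of 19 alternatives, the exception being the SCI only numbers. With the title number as a replicate block 3 passed (Dnajc9, Hspb8 and Hspa12a). Deviations of same-numbered HA and FT libraries correlated at 0.0086 to 0.104, with 2 of 10 above 0.1, so the numbers were not taken to pair them. In HA, where none passed, DESeq2 called 2 for hydrogel CT against SCI only, 7 for growth factors against SCI only and 3 between the hydrogel groups. For growth factors against SCI only no filter gave 1 (Hspb6), and leaving out 1 library gave 0 to 3, the 3 without library 1687. In FT, where none passed, hydrogel CT against SCI only gave 2 (Dnajb9 and Hspbp1) without a filter, 2 with 5 CPM and 1 with only the 2 groups fitted, and growth factors against SCI only gave 1 (Hspbp1) without a filter and 1 with 5 CPM. Of the genes tested, 15 of 32 changed sign in some alternative between HA and FT, 13 of 46 for hydrogel CT against SCI only, 20 of 46 for growth factors against SCI only and 19 of 46 between the hydrogel groups in HA, and 3 of 6 in each FT comparison, none passing with the other sign. Of the differences given as values these were Hspe1 between HA and FT (-0.61 to 0.95), Dnaja2 for growth factors against SCI only in HA (-0.98 to 0.37) and Hspd1 for hydrogel CT against SCI only in FT (-0.54 to 0.02). The genes' median between the hydrogel groups in HA was -0.01 and became 0.08 with DESeq2's size factors. The cause of these changes was not tested. FT libraries with a few reads per gene limit all FT values.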
